A study of Mus musculus with 6 samples.

Results

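The proteasome genes of mouse liver were compared between a ketogenic diet, which is very rich in fat and very poor in carbohydrate, and chow, a standard grain-based feed. The genes were those whose single symbol in the platform annotation begins with Psma, Psmb, Psmc, Psmd or Psme and a digit. This gave 44 of the 18193 genes with a single symbol, measured by 91 probe sets, and each gene was read on its probe set with the highest mean signal over all 6 arrays. Of the 44, 42 were bright enough to be tested among 11858 genes. The testis subunit Psma8 and Psmc3ip, a factor of meiotic recombination, had a mean log2 signal under that of the background of 10.7 on each diet and were not tested. On single arrays Psma8 exceeded the background on ketogenic array 2 (11.3), and Psmc3ip on ketogenic arrays 1 and 3 and on chow array 2. Psmc3ip and Psme3ip1 carry the name pattern but are not proteasome subunits. Psme2 had no probe set of its own, because its only probe set is listed with a second gene, so it is not analysed here.

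The mice were of the C57BL/6 strain, 8 weeks old at the start and fed Labdiet 5008 chow or the Bio-Serv diet F3666 for 6 weeks. They had free access to food, and livers were taken in the morning. Each diet had 3 arrays, with RNA of 2 to 3 animals per group. The labels do not say if an array held 1 animal or a pool. The p-values below therefore cover only the spread between the 3 arrays of a diet, part of which may be technical. Albumin, the defining hepatocyte product, had a signal between 7780 and 8417 on the 6 arrays, and no hepatocyte marker lay under the background. The summed signal of this list was lower on the ketogenic diet, but its genes differed. Of its 8 tested markers, 7 had a negative log2 change and 5 were lower without overlap (5.17% of all genes tested). Apob alone was higher without overlap (24.1% of all genes tested). In limma's test Tat and Cps1 fell, while Alb and Hnf4a had log2 changes of -0.013 and -0.0042. The summed signal of the 8 markers was 41909 to 45368 on chow and 31390 to 36631 on the ketogenic arrays.

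The proteasome is the protease that degrades proteins tagged with ubiquitin. Its 20S core is a barrel of alpha and beta rings, in which Psmb5, Psmb6 and Psmb7 carry the catalytic sites, and a 19S cap of ATPases and other subunits recognises, unfolds and feeds in the substrates. In immune cells, and in other cells under interferon, Psmb8, Psmb9 and Psmb10 replace Psmb5, Psmb6 and Psmb7 to form the immunoproteasome. Together with the PA28 activator made of Psme1 and Psme2, this form is known for producing peptides that class I molecules of the major histocompatibility complex present. Here these inducible genes are called immunoproteasome subunits, and the 40 other genes constitutive members.

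In livers of mice on the ketogenic diet, transcripts of Psmb10 were about 1.97 times as high as on chow, a call that 11 of 18 alternatives end. Psmb8, Psme1 and Psmb9 had fitted ratios of 1.81, 1.64 and 1.24 and did not pass the threshold. The constitutive members had a median log2 change of 0.2, close to the 0.237 of all genes tested, and without chow array 3 these medians were 0.038 and 0.13. In limma's test 1 of the 42 tested genes, Psmb10, rose at an adjusted p under 0.05 and 0 fell. Among all genes tested 6.6% rose and 0.86% fell, so the share of proteasome genes that rose was no larger than the background. At an unadjusted p under 0.05, 4 of the 42 were higher and 0 lower, against 19% and 4.05% of all genes tested. A positive log2 change was found for 35 of the 42 and for 69.9% of all genes tested. The arrays of the diets did not overlap for 4 genes, all higher on the ketogenic diet, where the share of all genes tested was 24.1% higher and 5.17% lower.

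The level of the arrays bears on these values. The 2% trimmed mean signal ran from 39.9 to 53.5 on chow and from 45.8 to 61 on ketogenic arrays. Added hybridization controls had signals from 633 to 650 on chow and from 478 to 511 on ketogenic arrays. The 3' to 5' signal ratio for actin, which reflects RNA integrity, was 2 to 2.2 on chow and 1.49 to 1.63 on ketogenic arrays. The same ratio for Gapdh overlapped between the diets, at 0.76 to 0.97 on chow and 0.77 to 0.81 on ketogenic arrays. The part of these measures in the results was not tested. Log2 changes are of the deposited signals unless another scaling is named.

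**Figure D1:**
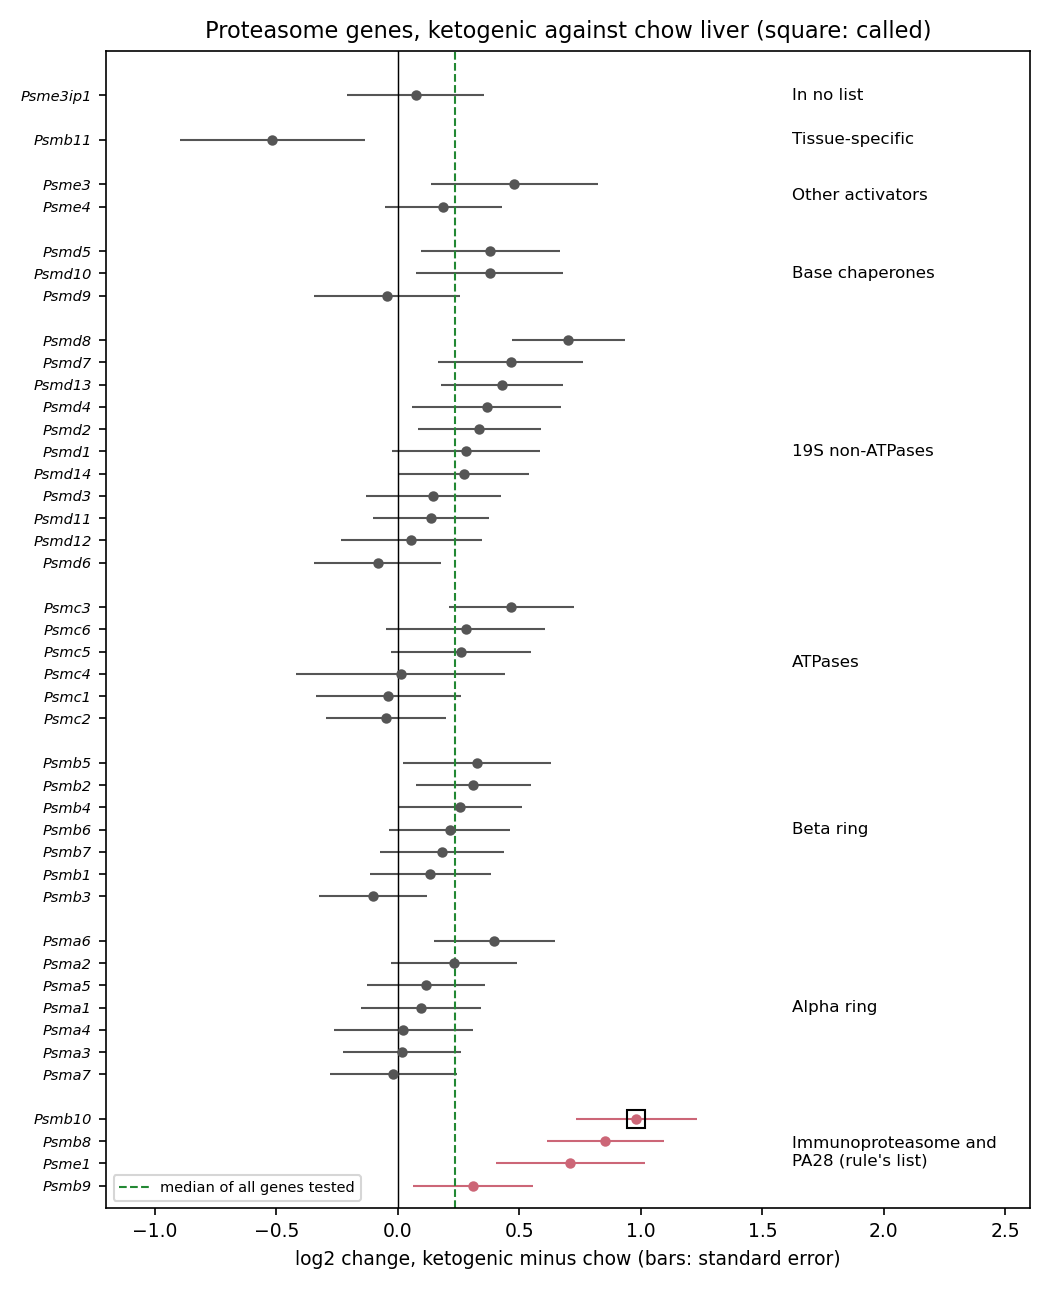
Log2 change of each tested proteasome gene, ketogenic minus chow, with its standard error (3 arrays per diet), grouped by place in the complex. The dashed line is the median of all genes tested (0.237). Psmb10 carries the only square, which marks an adjusted p under 0.05, and Psmb8, Psme1 and Psmd8 are the next highest.

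Among the immunoproteasome subunits, Psmb10, which replaces the trypsin-like subunit Psmb7, had signals of 150.9, 97.3 and 128.1 on chow arrays 1, 2 and 3 and of 247.8, 258.9 and 225.7 on ketogenic arrays 1, 2 and 3. Every ketogenic array lay above every chow array. The means were 125 ± 26.9 and 244 ± 16.9 (SD, n = 3), the log2 change was 0.98 ± 0.25 (SE) and limma's adjusted p was 0.0484. The call was close to the threshold. It was lost under 11 of 18 alternatives, among them without chow array 2 (adjusted p = 0.161), without chow array 3 (0.0985) and without ketogenic arrays 1, 2 and 3 (0.15, 0.129 and 0.0882). Quantile normalization (0.0769) and scaling to equal trimmed means (0.0601) ended it too. Over the 18 the adjusted p ran from 0.00411 to 0.161, while the log2 change stayed between 0.71 and 1.34.

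Psmb8, which replaces the chymotrypsin-like subunit Psmb5, had signals of 107.5, 78.8 and 84.8 on the chow arrays and 173.2, 173.4 and 141 on the ketogenic arrays. Again the diets did not overlap. Its log2 change was 0.85 ± 0.24 (SE), and limma's adjusted p of 0.0684 missed the threshold. It passed with equal array medians (0.0288), with equal trimmed means (0.0483), when scaled to the hybridization controls (0.00784), with log2(signal + 16) (0.0152), with a stricter filter (0.0129) and with a trended and robust prior (0.017), in a range up to 0.396.

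Psme1, the alpha subunit of PA28, had signals of 538.6, 377.5 and 441.4 on chow and of 727.7, 1044.9 and 516.1 on the ketogenic arrays. Ketogenic array 3 lay under chow array 1, so the diets overlapped. The log2 change was 0.71 ± 0.31 (SE), with limma's adjusted p = 0.207, and it passed only when scaled to the hybridization controls (0.0277). Without ketogenic array 2 the log2 change of Psme1 was 0.45. Psmb9, which replaces the caspase-like subunit Psmb6, had signals of 91, 68.3 and 97.5 on chow and of 96.4, 120.7 and 99.1 on the ketogenic arrays. The diets overlapped, since ketogenic array 1 lay under chow array 3. Its log2 change of 0.31 had an interval of 95% from -0.25 to 0.87, whose upper end is a 1.83-fold rise, and limma's adjusted p was 0.49. Without chow array 2 the log2 change of Psmb9 was 0.15 and with quantile normalization 0.0060.

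Of the 3 catalytic subunits that these replace, 0 passed the threshold, where 6.6% of all genes tested rose. Psmb7 had signals of 1915.8, 1776.8 and 1261.2 on chow and of 1974.1, 1965 and 1613.4 on the ketogenic arrays. Psmb5 had 712.5, 689 and 448.6 on chow and 725.3, 1030.7 and 578.7 on the ketogenic arrays. Psmb6 had 659.2, 546.5 and 452 on chow and 685, 673.4 and 549.8 on the ketogenic arrays. In all 3 genes the diets overlapped and chow array 3 was lowest. The log2 changes of Psmb7, Psmb5 and Psmb6 were 0.18, 0.32 and 0.21 (limma's adjusted p = 0.707, 0.559 and 0.642). That of Psmb7 was -0.031 with equal trimmed means and -0.0017 without chow array 3. Without that array Psmb5 had 0.11 and Psmb6 0.077, and Psmb5 had 0.10 without ketogenic array 2.

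**Figure D2:**
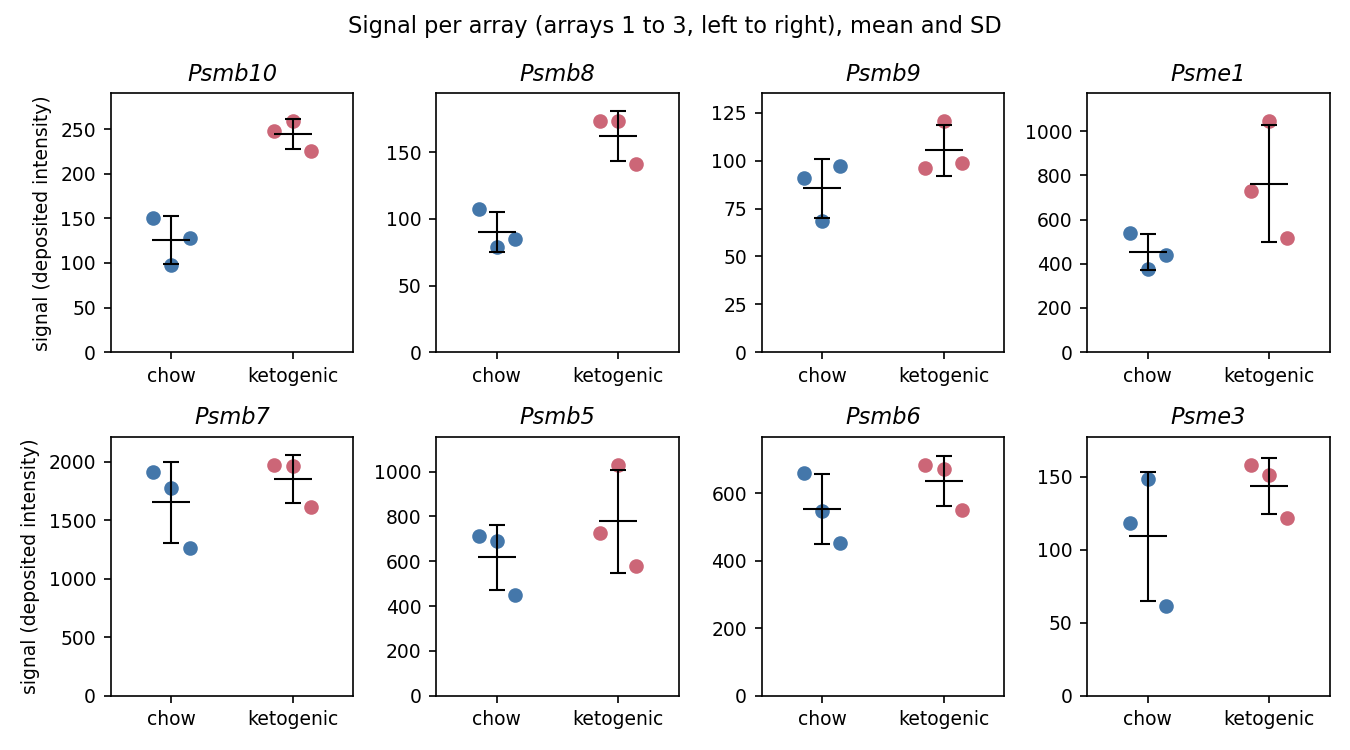
Deposited signal on each array for the immunoproteasome subunits Psmb10, Psmb8 and Psmb9 and the PA28 subunit Psme1 (upper row), and for Psmb7, Psmb5, Psmb6 and Psme3 (lower row). Points are arrays 1 to 3 from left to right, bars the mean and SD, and each axis starts at 0. The diets are apart for Psmb10 and Psmb8 and overlap for the other 6 genes.

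A difference between genes within an array does not depend on how that array is scaled as a whole, apart from the floor. The pairs below were chosen after their values were seen. Psmb10 minus Psmb7, on the log2 scale and relative to its chow mean, was 0.05, -0.47 and 0.42 on chow and 0.72, 0.79 and 0.88 on the ketogenic arrays, a difference between the diets of 0.8. The ketogenic arrays lay close together and above chow array 3, the highest of a wide chow group. Psmb8 minus Psmb5 differed by 0.53 and Psmb9 minus Psmb6 by 0.1, and Psme1 minus Psme3, a nuclear relative of PA28, by 0.23, each with overlapping diets. Over these 4 pairs the two-sided exact permutation p was 0.1, 0.2, 0.8 and 0.8, or 0.4, 0.4, 0.8 and 0.8 after Benjamini-Hochberg adjustment. With 3 arrays against 3 the smallest p possible is 0.1, so no pair could pass.

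The 4 immunoproteasome subunits had a median log2 change of 0.78 and the 38 tested constitutive members one of 0.2, a difference of 0.58. No test was made of this difference, since the lists were chosen with results of these data known. Per array, the mean log2 signal of the 4 genes minus that of the 31 subunits of the 20S core and 19S cap, relative to the chow mean, was 0.03, -0.41 and 0.39 on chow and 0.48, 0.53 and 0.53 on the ketogenic arrays. The SD was 0.0297 over the ketogenic and 0.402 over the chow arrays (n = 3 each), and the highest chow array came near the lowest ketogenic one. The difference of medians was 0.49 with quantile normalization and ranged from 0.4 without chow array 2 to 0.72 without chow array 3.

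**Figure D3:**
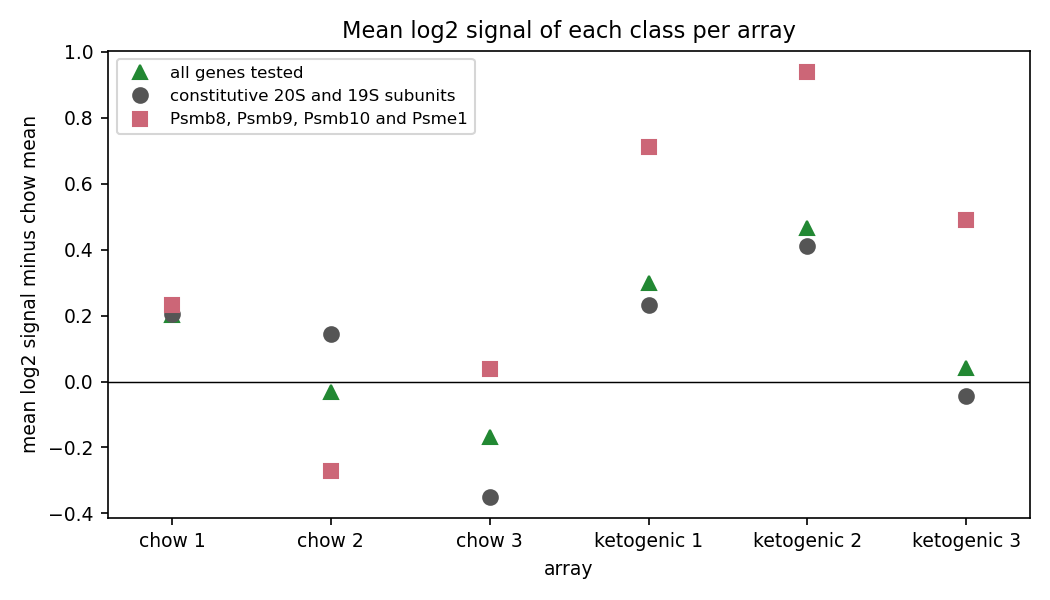
Mean log2 signal on each array, relative to the chow mean, of the 4 immunoproteasome and PA28 genes (squares), the 31 constitutive subunits of the 20S core and 19S cap (circles) and all genes tested (triangles). The squares lie at 0.49 to 0.94 on the ketogenic arrays and at -0.27 to 0.23 on chow, while circles and triangles overlap between the diets.

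The constitutive subunits differed between arrays of 1 diet in the order of the arrays' trimmed means. Relative to their chow mean, the 31 core and cap subunits had a mean log2 signal of 0.21, 0.14 and -0.35 on chow and of 0.23, 0.41 and -0.04 on the ketogenic arrays. Chow array 3 was the lowest chow array for 30 of the 31, and ketogenic array 3 the lowest ketogenic array for all 31. Among all genes tested, 6734 and 8340 of 11858 were lowest on these arrays. The median SD between arrays of a diet fell from 0.256 to 0.125 on the log2 scale for the 31 subunits when the arrays were brought to a common trimmed mean. For all genes tested it went from 0.329 to 0.26, and for the 4 immunoproteasome genes from 0.233 to 0.252.

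With that scaling the constitutive median became -0.01, against 0.02 for all genes, and 19 of the 38 members had a positive log2 change where 31 had one on the deposited signals. With a common array median the constitutive median was 0.09, with quantile normalization 0.07 and with the hybridization controls 0.56, while the medians of all genes were 0.13, -0.0047 and 0.60. A direction of the constitutive members as a group therefore depends on the scaling. The immunoproteasome median was 0.67, 0.57, 0.56 and 1.14 with the common median, the common trimmed mean, quantile normalization and the hybridization controls.

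**Figure D4:**
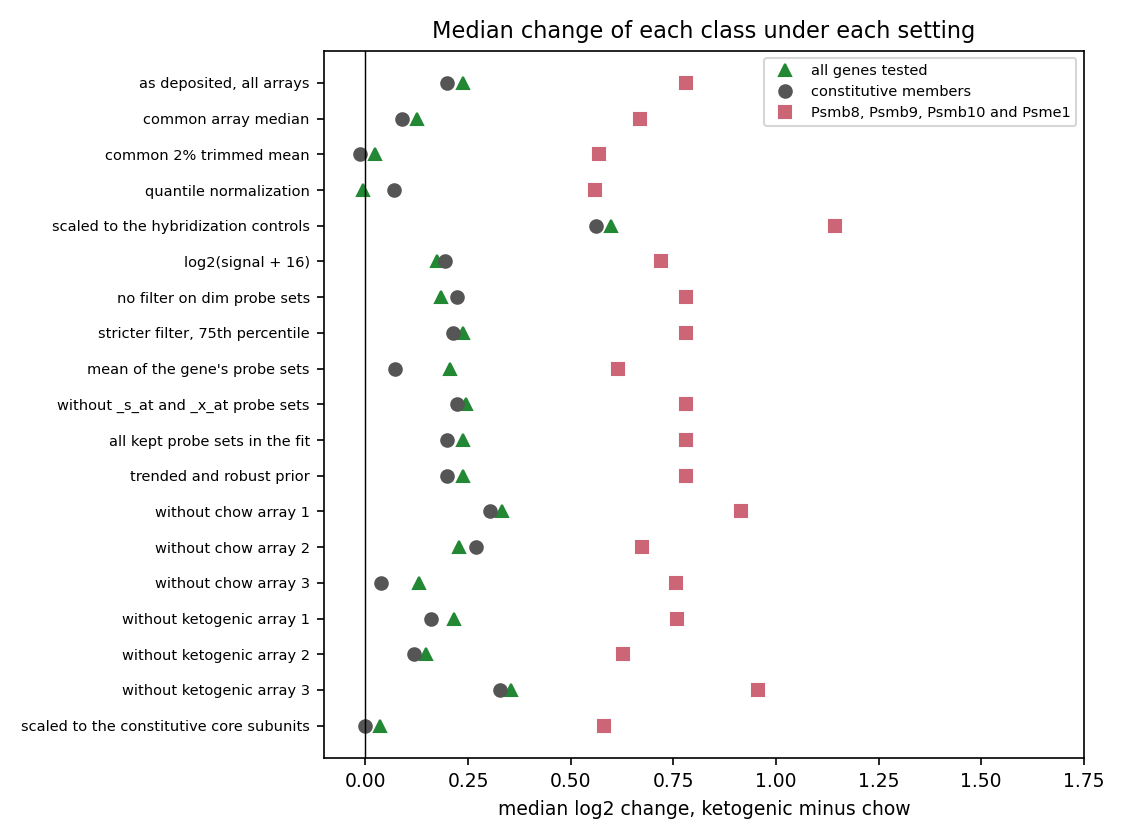
Median log2 change, ketogenic minus chow, of the constitutive members (circles), of Psmb8, Psmb9, Psmb10 and Psme1 (squares) and of all genes tested (triangles) under each processing setting. Circles lie between -0.01 (common trimmed mean) and 0.56 (hybridization controls), and the squares lie between 0.56 and 1.14 in every setting shown.

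In the alpha ring, which forms the gate of the barrel, 0 of 7 genes passed limma's threshold, where 6.6% of all genes tested rose and 0.86% fell. At an unadjusted p under 0.05 there were also 0, against 19% higher and 4.05% lower among all genes tested. With so few genes in each subcomplex, a count of 0 cannot be told apart from these shares. The log2 changes of the alpha ring ran from -0.02 to 0.4. The highest was that of Psma6, at 0.40 ± 0.25 (SE) with limma's adjusted p = 0.374 (0.035 when scaled to the hybridization controls), and 0.26 without chow array 3, while another bright probe set of Psma6 had -0.11. The lowest was that of Psma7, at -0.02, while its second probe set had 0.44. All 7 intervals of 95% lay under a 2-fold rise. In the constitutive beta ring 0 of 7 passed, with a median of 0.21 and a range from -0.1 for Psmb3, a structural subunit, to 0.32 for Psmb5, and 6 of the 7 intervals lay under a 2-fold rise.

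Among the 6 ATPases that unfold substrates, 0 passed, where 6.6% of all genes tested rose. The range was from -0.05 for Psmc2 to 0.47 for Psmc3. Psmc3 had signals of 430.1, 414.8 and 299.5 on chow and of 588.5, 545.7 and 439.8 on the ketogenic arrays. The diets did not overlap, by a narrow gap between chow array 1 and ketogenic array 3. Its log2 change of 0.47 ± 0.26 (SE) had limma's adjusted p = 0.311 and passed when scaled to the hybridization controls (0.0303). It was 0.30 without chow array 3.

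Of the 11 other subunits of the 19S cap, 0 passed, where 6.6% of all genes tested rose. The median log2 change was 0.28 and 10 of the 11 values were positive, against 0.237 and 69.9% for all genes tested. Psmd8, a subunit of the lid, stood highest. Its signals were 749.9, 611.7 and 603.9 on chow and 1056.6, 1182.8 and 951.2 on the ketogenic arrays, without overlap. The log2 change of Psmd8 was 0.70 ± 0.23 (SE), with limma's adjusted p = 0.11. It passed with a common array median (0.0387), quantile normalization (0.0407), the hybridization controls (0.0103), log2(signal + 16) (0.0263), a stricter filter (0.0449) and a trended and robust prior (0.0265), in a range up to 0.294. Relative to the mean of the 31 core and cap subunits it was -0.0029, -0.24 and 0.24 on chow and 0.46, 0.45 and 0.59 on the ketogenic arrays, which did not overlap. Psmd13, another lid subunit, followed in the order of adjusted p at 0.43 (0.346). It passed when scaled to the hybridization controls (0.0329). The lowest was Psmd6 of the lid, at -0.08.

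The chaperones that assemble the base of the cap, Psmd5, Psmd9 and Psmd10, had log2 changes of 0.38, -0.04 and 0.38. In limma's test 0 of the 3 passed (adjusted p = 0.459, 0.946 and 0.49), where 6.6% of all genes tested rose. Psmd5 had 0.24 without chow array 3 and 0.61 without ketogenic array 3. Of the activators outside the inducible pair, Psme3 had 0.48 ± 0.34 (SE) with limma's adjusted p = 0.441, and Psme4, which encodes PA200, had 0.19 with 0.679 (0.082 without chow array 3). Psme3 had 0.11 without chow array 3 and 0.74 without chow array 2. The mean over all probe sets of Psme3 gave -0.36, but it includes a probe set too dim to be tested. That probe set had signals from 0.6 to 9.2 and a log2 change of -1.83, while the other tested probe set of Psme3 had 0.27. Psmb11, the subunit of the thymus proteasome, had signals of 46.1, 23.6 and 16.6 on chow and of 14.6, 23.1 and 18.3 on the ketogenic arrays, close to the background and with overlap, and a log2 change of -0.52 (adjusted p = 0.455). Without chow array 1 the log2 change of Psmb11 was -0.11. For 29 of the 38 tested constitutive members the interval of 95% lay under a 2-fold rise, and for 37 it included 0, the exception being Psmd8.

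Beside the probe sets chosen by the rule, 27 others of 18 tested genes were bright enough to be tested. Of these, 18 had the sign of the chosen one, 9 the opposite sign, and 0 passed limma's threshold in the fit over probe sets. The strongest opposition, named after its values were seen, was in Psmb4, a structural beta subunit. Its chosen probe set had a log2 change of 0.26, while the second had signals of 637.7, 571.8 and 373.5 on chow and of 309.7, 417.6 and 152.7 on the ketogenic arrays, a log2 change of -0.93 (adjusted p = 0.243). Psmb10, Psmb9 and Psme1 had no other probe set, and that of Psmb8 was dim, with signals from 3.4 to 11.

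RefSeq promoters, 250 bases before to 50 after the gene start in build GRCm38.p6, were matched by symbol for 37 of the 44 genes and gave 40 windows. They were searched on both strands for 3 motifs. TGACNNNGC is the core of the antioxidant response element, which Nfe2l1 and Nfe2l2 bind. GAAANNGAA is the core of interferon-stimulated elements and TTCNNNGAA the gamma-activated site of interferon gamma responses. The first was in 6 of 36 windows of constitutive members (16.7%) and in 12.4% of all 32851 windows, and in 0 of the 4 immunoproteasome windows. The interferon core was in 5 of the 36 constitutive windows (13.9%) and in that of Psme1 (8.56% of all windows), and the gamma-activated site in those of Psmd2 and Psmb8 (8.3% of all windows). Those of Psmb10 and Psmb9 held none of the 3 motifs, which says only that these letters are not in these windows.

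The windows of Psmb10, Psmb8 and Psme1 are shown because these are the highest members of the inducible group. Those of Psmb5 and Psmb6 are shown because these catalytic subunits are replaced. Psmb7, which Psmb10 replaces, was not among the genes matched by symbol. Capitals mark the motif matches, of which no window shown holds more than 1. The match begins 97 bases before the start in Psmb8, 47 in Psmb5 and 9 in Psmb6, and 10 bases after it in Psme1, where the motif lies on the other strand.
Psmb10 chr8:105938343-105938642 (- strand): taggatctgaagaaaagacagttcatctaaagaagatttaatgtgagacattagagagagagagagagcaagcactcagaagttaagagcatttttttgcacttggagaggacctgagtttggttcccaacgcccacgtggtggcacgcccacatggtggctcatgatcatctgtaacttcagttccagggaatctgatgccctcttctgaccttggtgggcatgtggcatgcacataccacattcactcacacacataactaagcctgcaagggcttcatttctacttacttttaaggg
Psmb8 chr17:34197945-34198244 (+ strand): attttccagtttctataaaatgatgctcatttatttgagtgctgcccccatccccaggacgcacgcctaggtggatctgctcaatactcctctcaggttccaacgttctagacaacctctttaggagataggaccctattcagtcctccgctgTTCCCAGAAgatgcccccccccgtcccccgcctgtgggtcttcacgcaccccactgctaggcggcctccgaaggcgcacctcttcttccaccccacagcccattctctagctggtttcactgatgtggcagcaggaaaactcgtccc
Psme1 chr14:55578244-55578543 (+ strand): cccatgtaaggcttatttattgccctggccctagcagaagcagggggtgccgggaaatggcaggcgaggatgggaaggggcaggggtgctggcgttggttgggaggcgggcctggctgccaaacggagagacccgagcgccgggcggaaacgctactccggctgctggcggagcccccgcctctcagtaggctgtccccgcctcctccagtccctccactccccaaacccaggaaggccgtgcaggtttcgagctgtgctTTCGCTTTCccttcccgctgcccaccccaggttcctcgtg
Psmb5 chr14:54617946-54618245 (- strand): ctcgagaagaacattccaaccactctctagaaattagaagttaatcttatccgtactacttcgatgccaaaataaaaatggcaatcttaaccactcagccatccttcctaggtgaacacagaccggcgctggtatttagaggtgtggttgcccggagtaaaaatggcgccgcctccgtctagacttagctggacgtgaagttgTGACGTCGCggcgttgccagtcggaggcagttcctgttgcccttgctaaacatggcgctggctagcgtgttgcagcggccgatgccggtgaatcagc
Psmb6 chr11:70525107-70525406 (+ strand): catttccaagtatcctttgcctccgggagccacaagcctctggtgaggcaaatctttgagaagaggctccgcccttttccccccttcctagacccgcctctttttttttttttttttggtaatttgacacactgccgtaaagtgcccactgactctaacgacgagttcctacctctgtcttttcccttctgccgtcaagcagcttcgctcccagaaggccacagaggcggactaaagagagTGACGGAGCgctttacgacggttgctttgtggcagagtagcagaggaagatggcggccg
The constitutive genes with the antioxidant core, among them Psmb5 and Psmb6, had a median log2 change of 0.2 and the other matched constitutive genes one of 0.184. For the interferon core these medians were -0.0443 for the 5 genes with it and 0.213 for the others. Psmd2, the only constitutive gene with the gamma-activated site, had 0.336, against 0.186 for the others. These differences were not tested.

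Genes that work with the proteasome were read from lists. Of 9 tested assembly factors and other proteasome proteins, 0 passed limma's threshold, where 6.6% of all genes tested rose. At an unadjusted p under 0.05, 1 was higher (19% of all genes tested), and 1 was higher without overlap (24.1%). Their median log2 change was 0.16, against 0.237 for all genes tested. Pomp, the maturation protein of the 20S core, had -0.04 (limma's adjusted p = 0.942). Of 13 regulators of subunit genes and handlers of ubiquitin chains 0 passed, and the median was 0.41. In this list 3 had an unadjusted p under 0.05 with a higher level (19% of all genes tested), and 6 were higher without overlap (24.1%). Nfe2l1, the transcription factor known to raise subunit genes when proteasome capacity falls short, had signals of 134, 123.1 and 99.9 on chow and of 217.1, 276.5 and 184.7 on the ketogenic arrays. The diets did not overlap. The log2 change of Nfe2l1 was 0.92 ± 0.26 (SE) with limma's adjusted p = 0.0661, and it passed under 8 of 18 alternatives, among them equal array medians (0.0234), equal trimmed means (0.03) and quantile normalization (0.0381). Nfe2l2, the regulator of the antioxidant response, had 0.83 ± 0.24 (SE) with 0.0688 and passed under 7 of 18, but the mean over its probe sets gave 0.18.

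Of 17 tested genes of class I peptide loading and its inducers, 2 rose and 0 fell in limma's test, against 6.6% and 0.86% of all genes tested. The median log2 change was 0.47, 7 of the 17 had an unadjusted p under 0.05 with a higher level (19% of all genes tested), and 11 were higher without overlap (24.1%). The rises were those of Ifngr2, a chain of the interferon gamma receptor, by 1.88 (adjusted p = 0.0217) and of Irf8, a transcription factor of myeloid cells, by 1.31 (0.0159). Each call was lost under 5 alternatives. That of Ifngr2 was lost, among others, without chow array 1 (0.052) and without ketogenic arrays 2 and 3 (0.0647 and 0.0562), and that of Irf8, among others, without chow array 3 (0.0506), with equal trimmed means (0.0542) and with quantile normalization (0.0686). Tap1, a subunit of the peptide transporter, had signals of 51.1, 53.5 and 68.1 on chow and of 67.5, 74 and 63.5 on the ketogenic arrays. The diets overlapped, and the log2 change of 0.26 had limma's adjusted p = 0.549. Irf1, an interferon-induced transcription factor, had 0.57 (0.213) and passed when scaled to the hybridization controls (0.0202). Ifng itself, named after its values were seen, had signals of 0.4 to 3.7, under the background on all 6 arrays. Adrm1 is not analysed here.

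Immunoproteasome subunits are also made by leukocytes, and markers of these cells moved with the diet. Of 6 tested leukocyte markers 5 rose, where 6.6% of all genes tested did. One of these, Coro1a, was under the background on chow and was tested only because of its ketogenic signals. For these lists, under the background refers to the mean log2 signal over the arrays of a diet, and single arrays can exceed it. Of the 5 above the background on both diets 4 rose. The summed signal of the 6 was 392 to 503 on chow and 1068 to 1223 on the ketogenic arrays. Ptprc, the common leukocyte antigen, had signals of 30.7, 23.4 and 18.9 on chow and 126.6, 112 and 103.6 on the ketogenic arrays. Of 8 tested macrophage markers 7 rose. With the untested Itgam, which was under the background on both diets, the 9 markers had summed signals of 1023 to 1364 on chow and 4044 to 5054 on the ketogenic arrays. Of the 8 markers of T and NK cells 5 lay under the background on both diets and Cd8a was the only one tested, with a log2 change of 0.23 (adjusted p = 0.737). Nkg7, a granule protein of cytotoxic cells named after its values were seen, was too dim to be tested. It had signals of 5.4, 5.6 and 2.2 on chow and 7.5, 20.6 and 18.4 on the ketogenic arrays, without overlap. The other untested markers of this list overlapped between the diets. Of 3 B cell markers 0 rose, with sums of 65.1 to 86.1 and 67 to 115 for T and NK cells and of 28.6 to 47.7 and 39.4 to 72.2 for B cells. Of the other marker lists, 5 of 5 tested stellate cell, 0 of 6 endothelial and 0 of 3 cholangiocyte genes rose in limma's test. Of 8 hepatocyte genes 0 rose and 2 fell. Each of the 6 endothelial genes had a log2 change above 0, and their median was 0.56. At an unadjusted p under 0.05, 3 of them were higher (19% of all genes tested), and 3 were higher without overlap (24.1%). The smallest of limma's adjusted p in this list was 0.0764, for Clec4g. Both counts were 0 for the tested B cell and cholangiocyte genes. The untested cholangiocyte gene Krt7, named after its values were seen, had signals of 1.4, 1.3 and 2.5 on chow and 8.1, 12.5 and 17.2 on the ketogenic arrays, without overlap. The stellate gene Col1a1 had a mean log2 signal under the background on chow and was tested only because of its ketogenic signals. Its chow signals were 16.6, 2.8 and 18.4, so chow arrays 1 and 3 exceeded the background. The 4 other tested stellate genes were above it on both diets. No marker in these lists was at 0 on any array. In whole liver, more cells of a type and more RNA per cell cannot be told apart, and the part of these cells in the values of Psmb10, Psmb8 and Psme1 was not tested.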

How the data were processed

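Liver RNA of 6 samples was measured on one-colour Affymetrix arrays. The authors deposited 1 linear signal intensity for each probe set; the submitters' processing notes name GCOS and MAS5, without version or scaling target. Precision is limited by the number of arrays. Values below 1.1 (the 10th percentile) were set to 1.1, and all were taken to log2 and left as deposited between arrays. Genes were kept where the mean log2 signal reached the median of all 45101 probe sets, 3.35. Of these probe sets, 34958 had 1 gene symbol in GEO's platform annotation, 932 had several and 9211 were not listed. Diets were compared over all 11858 genes with limma 3.58.1 in R 4.3.3 (lmFit and eBayes, two-sided, Benjamini-Hochberg, threshold 0.05; 4 residual and 4.93 prior degrees of freedom). The procedure was tested on simulated data with independent noise for each gene. That simulation held no shift of whole arrays, so it does not cover the differences in level between these arrays. The background of 10.7 comes from 27 bacterial control probe sets (their 95th percentile on each array, averaged as log2). Array numbers follow the order of deposition. The members and lists were chosen with earlier results of these data known. Named genes were all called members, the immunoproteasome subunits and their counterparts, the 5 uncalled members with the smallest adjusted p, the highest and lowest of each subcomplex, up to 4 called genes per list, and Nfe2l1, Nfe2l2, Pomp, Adrm1, Tap1 and Irf1; another gene of this rule is not reported here.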

Additional observations from a re-analysis of the deposited data

How the results depend on the processing

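On the deposited signals 1 proteasome gene rose and 0 fell, and 0 fell under any alternative run. The number that rose was 3 with a common array median, with log2(signal + 16), with a stricter filter and with a trended and robust prior (Psmb10, Psmb8 and Psmd8 each time), and 9 when scaled to the hybridization controls. It was 0 without the filter on dim probe sets, with the mean of each gene's probe sets, with all kept probe sets in the fit and, in an alternative chosen after seeing the data, with arrays scaled to the constitutive core subunits. It was 1 with quantile normalization (Psmd8) and with equal trimmed means (Psmb8), and 0 to 1 when 1 array was left out. The constitutive median of 0.2 became 0.56 and the immunoproteasome median of 0.78 became 1.14 with the hybridization controls. When 1 array was left out they ranged from 0.04 to 0.33 and from 0.63 to 0.96, and their difference of 0.58 from 0.4 to 0.72. With constitutive members limited to core subunits the median was 0.21 and the difference 0.57. Over all genes tested, 783 rose and 102 fell, with a median of 0.24. This split was 934 and 278 with a common median, 689 and 361 with equal trimmed means, 583 and 327 with quantile normalization, 3775 and 93 with the hybridization controls and 494 and 215 with the core subunits.

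For 27 single genes named, 484 comparisons with an alternative gave 401 with the same direction and side of the threshold, 21 calls lost, 32 gained and 30 turns of sign, all in genes that were not called on either side. With the hybridization controls the log2 change became 0.34 for Psma7, 0.26 for Psmb3, 0.31 for Psmc2, 0.28 for Psmd6, 0.32 for Psmd9 and 0.32 for Pomp. With equal trimmed means it became -0.031 for Psmb7 and -0.026 for Psme4, with quantile normalization -0.019 for Psme4 and -0.055 for Tap1, and scaled to the core subunits -0.019 for Psmb7 and -0.014 for Psme4. The mean of the probe sets gave -0.36 for Psme3, -0.093 for Psma6, 0.21 for Psma7 and 0.017 for Psmc2. It includes probe sets too dim to be tested, with signals of 0.6 to 9.2 for Psme3, 0.2 to 6.2 for Psma6 and 5.8 to 16.4 for Psmc2. Without _s_at and _x_at probe sets Psma6 had -0.11 and Psmc2 0.27. When 1 array was left out, Psmb7 ranged from -0.0017 to 0.30, Psma7 from -0.21 to 0.12, Psmc2 from -0.16 to 0.090, Psmd6 from -0.27 to 0.054, Psmd9 from -0.30 to 0.23 and Pomp from -0.19 to 0.13. The cause of these shifts was not tested. No paired analysis was possible because the labels give no replicate numbers shared by the diets. With 3 arrays per diet and a median standard error of 0.26 among members, 95% intervals of 9 of the 38 constitutive members reach a 2-fold rise.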
